A study of Mus musculus with 6 samples.

Results

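Interferon-inducible GTPases are enzymes of cell-autonomous immunity, and 6 of their genes were described in the mouse retina after optic nerve crush (ONC). They were *Gbp3*, *Gbp4*, *Gbp6* and *Gbp9*, which encode guanylate-binding proteins, and *Iigp1* and *Tgtp1*, which encode immunity-related GTPases. RNA-seq was done on the peripheral ventrotemporal (VT) retina of wildtype (WT) and *Slc6a4*-/- mice, the latter lacking the serotonin transporter SERT. All mice were labelled C57BL/6, were 8 weeks old (postnatal day 56), and had the left optic nerve crushed 24 hours before the retina was taken, so that both genotypes were injured and no uncrushed retina entered the comparison. Each genotype was sampled 3 times, every time from retinae of 3 mice put in 1 tube, so each SD given here is between pools. Reads are always given in the order of samples 1, 2 and 3, and the *Slc6a4*-/- animals are also called mutants. The genes were picked by name from the 701 genes of the authors' table, and those 701 had themselves been selected on a p-value below 0.05 in the same comparison of genotypes. The difference between genotypes is therefore a description of these 6 genes and carries no test for any of them.

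Interferons bind cell surface receptors, and the signal reaches target genes through DNA elements near their starts. These are the gamma-activated site (GAS) and the interferon-stimulated response element (ISRE), which complexes that hold interferon regulatory factors (IRFs) bind. Both kinds of element drive the transcription of guanylate-binding proteins and immunity-related GTPases, which are scarce in resting tissue. The proteins bind and hydrolyse GTP and assemble on the membranes around intracellular bacteria and parasites. Macrophages, microglia, endothelial cells and many other cell types can express them, so their mRNA does not name a cell type.

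The part of the coding sequence that the family shares is the loop that holds the phosphates of GTP. It is shown for 5 of the genes because it makes the likeness of the members visible, with the 24 bases that encode the loop in capitals. The sequences were read from GENCODE M21 transcripts and lie on GRCm38, the build the authors used. Each stretch is 60 bases long, lies within exon 2 of its transcript and is written 5′ to 3′ on the coding strand.
Gbp3, chr3:142561860-142561919, plus strand: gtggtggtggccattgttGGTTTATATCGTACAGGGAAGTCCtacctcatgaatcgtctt
Gbp4, chr5:105136854-105136913, minus strand: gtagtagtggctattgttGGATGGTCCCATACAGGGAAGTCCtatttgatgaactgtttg
Gbp6, chr5:105290853-105290912, minus strand: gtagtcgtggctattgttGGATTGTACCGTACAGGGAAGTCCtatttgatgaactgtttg
Gbp9, chr5:105105680-105105739, minus strand: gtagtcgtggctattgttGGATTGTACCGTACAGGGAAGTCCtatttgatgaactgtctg
Tgtp1, chr11:48987649-48987708, minus strand: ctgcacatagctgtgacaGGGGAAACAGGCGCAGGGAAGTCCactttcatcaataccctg
*Gbp6* and *Gbp9* were identical over all 24 bases of the loop and over 59 of the 60 bases shown. *Gbp3*, on another chromosome, matched *Gbp6* at 47 of 60 bases, and *Tgtp1*, of the other GTPase family, matched *Gbp6* at 30 of 60. The loop of *Tgtp1* matched that of each guanylate-binding protein at 14 or 15 of 24 bases. Each loop was located by a search for a pattern with some fixed bases, so part of this identity follows from the search.

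RefSeq promoter windows, which span a transcription start on GRCm38.p6, were given for 2 of the 6 genes, *Gbp3* and *Tgtp1*. The 120 bases before the start are shown because they hold the letters of the interferon response elements, with matches to the ISRE core (GAAANNGAAA) and the GAS (TTCNNNGAA) in capitals. Both strands were searched, and matches to different motifs may overlap. *Tgtp2*, a near copy of *Tgtp1* on the same chromosome, is shown beside it.
Gbp3, chr3:142559924-142560043, plus strand: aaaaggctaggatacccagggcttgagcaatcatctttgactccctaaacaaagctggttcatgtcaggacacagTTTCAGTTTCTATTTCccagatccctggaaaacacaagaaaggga
Tgtp1, chr11:48992247-48992366, minus strand: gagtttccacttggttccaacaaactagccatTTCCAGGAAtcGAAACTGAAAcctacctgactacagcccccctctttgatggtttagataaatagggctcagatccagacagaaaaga
Tgtp2, chr11:49064213-49064332, minus strand: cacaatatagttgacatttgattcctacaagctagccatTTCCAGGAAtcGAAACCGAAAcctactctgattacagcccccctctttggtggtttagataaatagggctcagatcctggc
*Gbp3* held 2 overlapping ISRE cores on the minus strand, with first bases at -45 and -39 from the start, and no GAS match. *Tgtp1* held a GAS at -88 and an ISRE core at -77, in the same order and spacing as *Tgtp2*, where they began at -81 and -70. The ISRE core occurred in 3.44% of all 32851 promoter windows and the GAS in 8.3%. The shorter IRF core (AANNGAAA), which every ISRE core contains, occurred in 23.9% of windows, and it was present in all 3 windows shown. A further *Gbp3* window, for a start downstream, held none of the 3 motifs. A match describes the letters of the window and not the binding of a factor.

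The libraries were made from total RNA depleted of ribosomal RNA, and the authors deposited read counts per gene. Over the 701 genes the counts summed to 1051620 to 1085549 per WT library and 1137302 to 1427001 per *Slc6a4*-/- library, which is a selected part of each library and not its depth. Totals recovered from the authors' RPKM values were 77.9 M mapped reads per WT library and 88.4 M per *Slc6a4*-/- library on average. Counts were divided by a factor per library, from 0.928 to 0.953 in WT and from 0.975 to 1.14 in *Slc6a4*-/-, and the result is called the scaled count. *Slc6a4* itself had 1516, 1397 and 1548 reads in the WT pools against 0, 0 and 3 in the mutant pools. Of 16 listed markers of retinal neurons and glia, 9 were in the table, each with at least 569 reads in every library.

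All 6 GTPase genes had their 3 *Slc6a4*-/- values above their 3 WT values. Mean scaled counts were 1.36-fold (*Gbp6*) to 4.61-fold (*Tgtp1*) higher in mutant than in WT retina. Among all 701 genes, 267 (38.1%) had all 3 *Slc6a4*-/- values above all 3 WT values, and since the table was selected on this contrast nothing is read from the members' count. On the log2(scaled count + 1) scale the median difference of the 6 genes was 0.84, against 0.29 for all 701 genes and 0.63 for the 397 genes with a higher mean in *Slc6a4*-/-. In a limma fit over the table, 14 of 701 genes (2.0%) passed a Benjamini-Hochberg adjusted p of 0.05, with 10 higher and 4 lower in *Slc6a4*-/-. The SE given below with a log2 difference is from this fit, which draws each gene's variance towards a trend over the table. None of the 6 GTPase genes was among the 14 genes, while 5 of the 6, all but *Iigp1*, had an unadjusted limma p under 0.05, as had 379 genes (54.1%) of the table. These counts turned on the scaling and on single libraries: with no library scaling 160 table genes and 5 of the 6 passed the adjusted test, and without WT sample 1 it was 166 table genes and 3 of the 6. In a bulk sample, more cells of a type and more RNA per cell cannot be told apart.

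**Figure D1:**
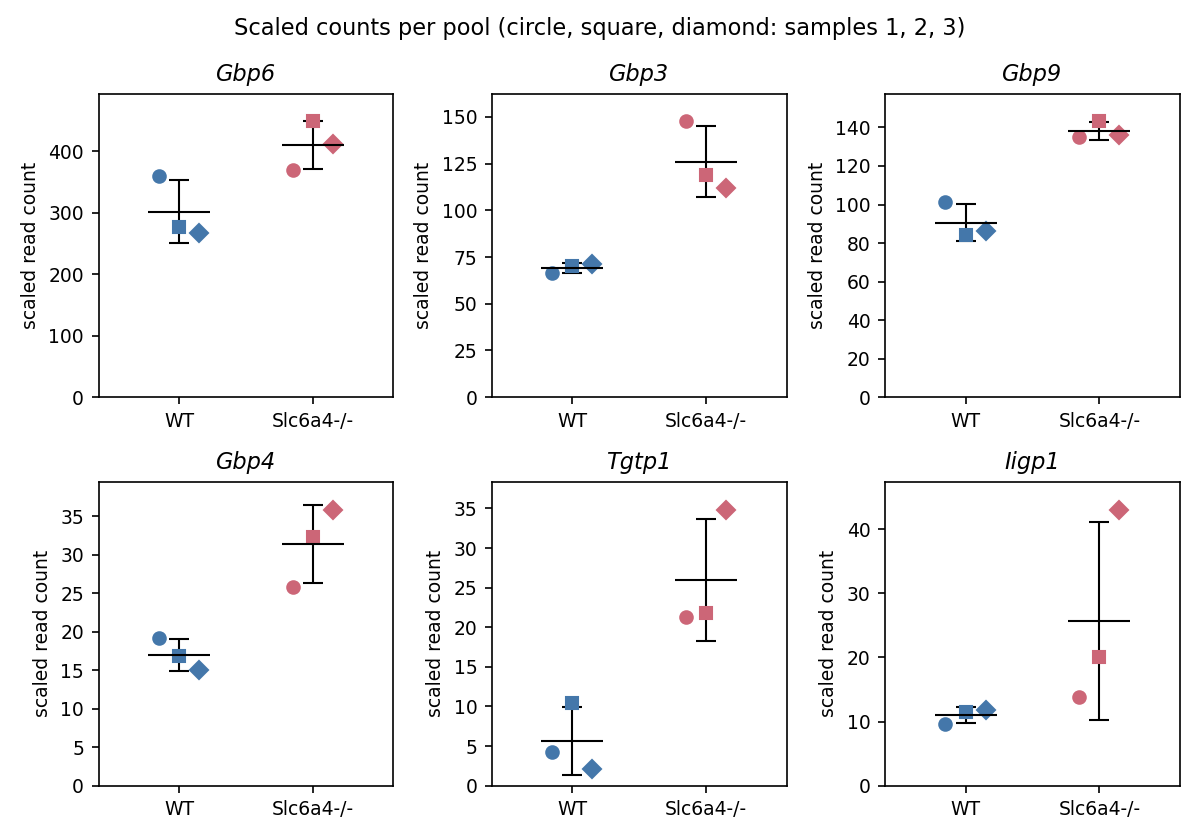
Scaled read count (vertical axis, from 0) of each of the 6 GTPase genes in the 3 WT and 3 *Slc6a4*-/- samples, with a horizontal bar for the mean and error bars of 1 SD (n = 3). All *Slc6a4*-/- points lie above all WT points in each panel, by the smallest margin for *Gbp6*, where 370.3 faces 360.2.

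The 4 guanylate-binding proteins lie in 2 genomic clusters. *Gbp3* (ENSMUSG00000028268) is on the plus strand of chromosome 3 from 142560026 to 142573209, in a gene cluster that mice need to control the parasite Toxoplasma gondii. It had 62, 67 and 66 reads in the WT pools against 160, 136 and 109 in the mutant pools. The WT pools were close to each other, and *Slc6a4*-/- sample 1 was the highest. Scaled counts averaged 69.2 ± 2.60 in WT against 126.1 ± 19.1 in mutants (SD, n = 3 each), a 1.82-fold higher mean and a log2 difference of 0.85 (SE 0.18). The lowest *Slc6a4*-/- value was 1.57 times the highest WT value, and without *Slc6a4*-/- sample 1 the means still differed 1.67-fold.

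*Gbp6* (ENSMUSG00000104713, chromosome 5, minus strand, 105270702 to 105293698) was the most abundant of the 6 genes. It had 337, 264 and 248 reads in the WT pools against 401, 514 and 402 in the mutant pools. WT sample 1 was the highest of its group and lay just under *Slc6a4*-/- sample 1 once scaled. Scaled counts averaged 301.5 ± 51.1 in WT against 410.5 ± 39.4 in mutants (SD, n = 3 each), a 1.36-fold higher mean and a log2 difference of 0.45 (SE 0.16). The ratio of means was 1.29 without WT sample 3 and 1.51 without WT sample 1, the ends of its range when each library was left out.

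*Gbp9* (ENSMUSG00000029298, chromosome 5, minus strand, 105077630 to 105139539) had 95, 80 and 80 reads in the WT pools against 146, 164 and 133 in the mutant pools. Its *Slc6a4*-/- pools were the most alike of any of the 6 genes, at 138.2 ± 4.52 scaled counts, against 90.6 ± 9.57 in WT (SD, n = 3 each). The mean was 1.53-fold higher, with a log2 difference of 0.61 (SE 0.16), and stayed between 1.47-fold and 1.62-fold when any library was left out. *Gbp4* (ENSMUSG00000079363, chromosome 5, minus strand, 105115767 to 105139586) had few reads, 18, 16 and 14 in the WT pools against 28, 37 and 35 in the mutant pools. The groups were apart by 1.34-fold at their nearest values. Scaled counts averaged 17.0 ± 2.09 in WT against 31.4 ± 5.08 in mutants (SD, n = 3 each), a 1.84-fold higher mean and a log2 difference of 0.84 (SE 0.27).

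*Tgtp1* and *Iigp1* encode immunity-related GTPases, which in mice load onto the vacuoles of intracellular parasites. *Tgtp1* (ENSMUSG00000078922, chromosome 11, minus strand, 48985327 to 48994172) was the gene with the largest ratio of the 6. It had 4, 10 and 2 reads in the WT pools against 23, 25 and 34 in the mutant pools. Its WT level rested on 16 reads in all, of which WT sample 2 gave 10. Scaled counts averaged 5.64 ± 4.33 in WT against 26.0 ± 7.69 in mutants (SD, n = 3 each), a 4.61-fold higher mean and a log2 difference of 2.19 (SE 0.55), which the added 1 shrinks at so few reads. The ratio of means was 8.08 without WT sample 2 and 3.52 without WT sample 3, so the size of the ratio turned on single WT pools, while the lowest *Slc6a4*-/- value was 2.02 times the highest WT value.

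*Iigp1* (ENSMUSG00000054072) lies on the plus strand of chromosome 18 from 60376027 to 60392634. It had 9, 11 and 11 reads in the WT pools against 15, 23 and 42 in the mutant pools. The WT pools were nearly equal and the *Slc6a4*-/- pools were spread widely, with sample 3 far above the others. Scaled counts averaged 11.0 ± 1.21 in WT against 25.7 ± 15.4 in mutants (SD, n = 3 each), a 2.33-fold higher mean and a log2 difference of 1.00 (SE 0.46). Without *Slc6a4*-/- sample 3 the ratio of means was 1.54, so 1 pool carried much of the difference.

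**Figure D2:**
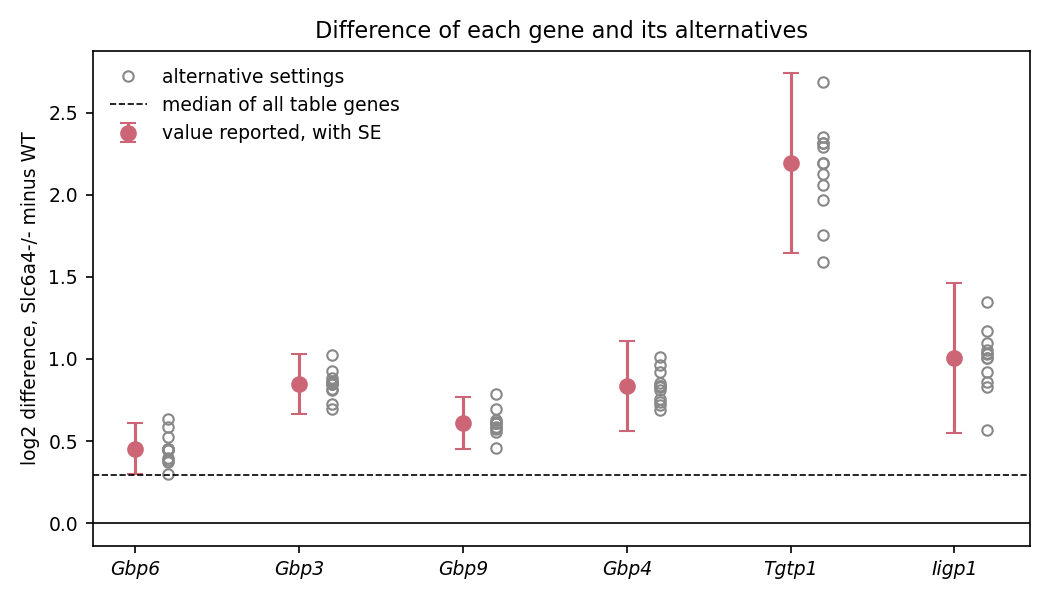
Log2 difference of *Slc6a4*-/- minus WT (vertical axis) of each GTPase gene, as the fitted value with its standard error (filled points) and under each alternative setting (open points). All points lie above 0, and the dashed line marks the median of the 701 genes under the main scaling, 0.29. The lowest *Gbp6* value (0.30) is from the median of ratios of the table, where the median of the 701 genes was 0.14.

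The spread between pools differed among the genes. Counting alone gives a variance about equal to the mean, and the ratio of variance to mean in the *Slc6a4*-/- pools was 0.158 for *Gbp9* and 0.879 for *Gbp4*, but 9.84 for *Iigp1*. In WT the ratio was 0.0919 for *Gbp3* and 0.125 for *Iigp1*, and 3.12 for *Tgtp1* and 8.12 for *Gbp6*. With 3 pools each such ratio is itself imprecise. Relative to counting error, the most spread pools were thus those of *Iigp1* in *Slc6a4*-/- and of *Gbp6* in WT.

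Levels between genes were compared as reads per kilobase of exon per M mapped reads (RPKM). In WT the order was *Gbp6* (0.610 ± 0.103), *Gbp3* (0.255 ± 0.00961), *Gbp9* (0.211 ± 0.0223), *Gbp4* (0.0274 ± 0.00335), *Iigp1* (0.0228 ± 0.00251) and *Tgtp1* (0.0212 ± 0.0163), each with its SD over 3 samples. The first 3 were separate from their neighbours in the order, and the last 3 overlapped one another. In *Slc6a4*-/- VT retina the order was *Gbp6* (0.831 ± 0.0798), *Gbp3* (0.465 ± 0.0704), *Gbp9* (0.322 ± 0.0105), *Tgtp1* (0.0977 ± 0.0289), *Iigp1* (0.0531 ± 0.0318) and *Gbp4* (0.0504 ± 0.00817), and the first 3 again did not overlap with the next. *Tgtp1* was thus last in WT and the fourth in *Slc6a4*-/-, although it overlapped with *Iigp1* in both. All 6 genes were below the median level of the table, which was 1.25 RPKM in WT and 1.34 RPKM in *Slc6a4*-/-. These lengths sum the exons of every annotated transcript, which lowers the values of genes with long minor transcripts. The authors' own mean RPKM of the higher genotype gave the same first 3, with *Gbp6* at 1.16, *Gbp3* at 0.48 and *Gbp9* at 0.38, then *Iigp1* and *Tgtp1* both at 0.1 and *Gbp4* at 0.08.

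**Figure D3:**
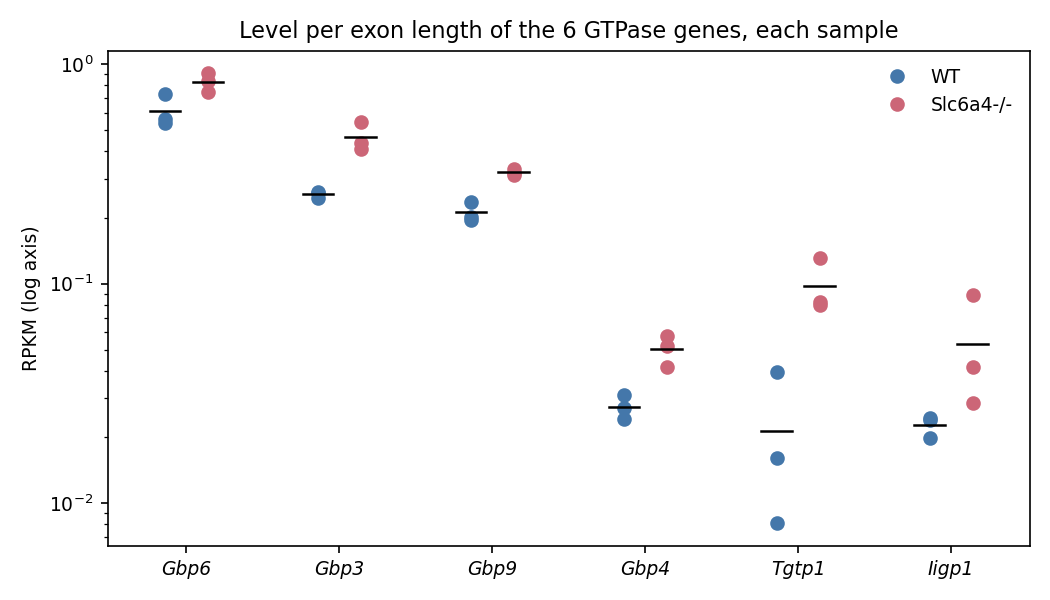
Level per exon length in RPKM (vertical log axis) of the 6 GTPase genes in each WT and *Slc6a4*-/- sample, with a bar for the mean. *Gbp6*, *Gbp3* and *Gbp9* form the upper range, from 0.195 RPKM upward, and the other 3 genes stay at or under 0.131 RPKM.

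Several of the genes share sequence with near copies, so their reads may be divided between copies in a way that depends on the authors' counting. Of the distinct 75-base words of *Tgtp1* transcripts, 75 bases being the read length, 77.2% also occurred in transcripts of other genes, and 74.6% occurred in *Tgtp2*. The *Tgtp1* value is therefore uncertain as to which copy it came from. *Tgtp1* also shared 223 exon bases with *Gm12185* on the same strand, and *Olfr56*, on the opposite strand, spans it with 0 exon bases in common. For *Gbp6* the share was 67.3%, with 61.7% in *Gm43302* and 40.4% in *Gbp10*. *Gbp9*, *Gbp4* and *Gbp3* shared 3.61%, 3.08% and 2.06% of their words with other genes, and *Iigp1* shared 0%.

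*Gm43302* is annotated on the same strand as *Gbp6*, from 105214907 to 105293695, and shares 1726 exon bases with it, or 29.0% of the *Gbp6* exons. It is also in the table, with 34, 0 and 23 reads in the WT pools and 0 reads in each mutant pool, the opposite direction to *Gbp6*. When the scaled counts of both genes were added, the sums were 396.5, 277.0 and 292.1 in WT and 370.3, 449.1 and 412.1 in *Slc6a4*-/-. The groups then overlapped, since WT sample 1 exceeded *Slc6a4*-/- sample 1, and the ratio of means was 1.28 in place of 1.36. *Gbp4*, *Gbp9* and *Gbp8* overlap on the same strand, with nearly the whole span of *Gbp4* inside those of *Gbp9* and *Gbp8*. Each pair shares 60 or 61 exon bases, at the 5′ ends. *Gm12184*, the other table gene within 200 kb of a member, lies near *Tgtp1* on chromosome 11 and had 8, 2 and 15 reads in WT and 15, 31 and 22 in *Slc6a4*-/-, with overlapping scaled counts.

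Among pools of the same genotype the values of the 6 genes did not all rise and fall together. After the mean of each genotype was removed, Pearson's r over the 6 samples was positive for 8 of the 15 pairs of genes and negative for 7. The points share their libraries and scaling factors, and no p is attached. For several genes the spread between pools was no larger than counting error, so r cannot show whether they vary together. On chromosome 5, r was 0.94 for *Gbp6* and *Gbp9* and 0.77 for *Gbp4* and *Gbp6*. The remaining pair there, *Gbp4* and *Gbp9*, had r = 0.55, below *Gbp4* with *Iigp1* on another chromosome (r = 0.63). *Gbp3*, on chromosome 3, ran against *Gbp4* (r = -0.92) and *Iigp1* (r = -0.78), and *Iigp1* and *Tgtp1* had r = 0.36. In scaled counts, *Gbp3* was highest in *Slc6a4*-/- sample 1, *Gbp6* and *Gbp9* in sample 2, and *Gbp4*, *Tgtp1* and *Iigp1* in sample 3, while sample 1 was the lowest for every gene but *Gbp3*, in near ties for *Gbp9* and *Tgtp1*. The table genes whose variation within genotypes, after the genotype means were removed, was most like the mean of the 6, among 637 genes with a mean of at least 20 scaled counts, were *Dynlt1c* (r = 0.98), *Wdr62* (r = 0.98), *H2ac19* (r = 0.94), *Tprn* (r = 0.94) and *Hist1h2ap* (r = 0.93), over 6 samples. This likeness leaves out the difference between genotypes, which was opposite to that of the 6 genes for *H2ac19* (log2 difference -0.93) and *Hist1h2ap* (-0.97). The mean of the 6 was moved most by *Tgtp1* and *Iigp1*, which had few reads and the widest spread on the log2 scale. The genes named are also the extremes of 637 values of r.

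Other interferon-related genes were taken from lists, and the genes of these lists that are in the table were selected on the same contrast as the members. The lists were also chosen with earlier results of these data known, so their counts and directions are descriptions only. Of 22 interferon-inducible GTPases in the family list, the 6 members were in the table, and the other 16, such as *Gbp2*, *Irgm1* and *Igtp*, were not. Without their counts, too few reads and a p of 0.05 or above cannot be told apart for these genes. Of 37 interferon-stimulated antiviral genes, 19 were in the table, and all 19 had a higher mean in *Slc6a4*-/-, 17 of them without overlap, where 397 (56.6%) and 267 (38.1%) of all 701 genes did. Their median log2 difference was 0.76, from 0.42 for the helicase gene *Ddx60* to 3.29 for *Slfn4*, and in limma none of the 19 passed the adjusted and 15 the unadjusted threshold of 0.05, the latter passed by 54.1% of all genes in the table. *Ifit3*, whose protein acts with those of other *Ifit* genes on viral RNA, had the most reads of these genes, not corrected for length, and averaged 316.7 ± 43.2 scaled counts in WT against 476.6 ± 71.3 in mutants (SD, n = 3 each). *Slfn4*, a myeloid gene, had 11, 9 and 24 reads in the WT pools against 417, 113 and 84 in the mutant pools, with sample 1 far above the others.

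Of 21 genes of interferon signalling, only *Irf3* and *Socs3* were in the table, and the interferons and their receptors were not among the selected genes. *Irf3*, an IRF that acts upstream of interferon production, averaged 739.6 ± 38.1 scaled counts in WT against 1083 ± 44.8 in mutants (SD, n = 3 each), and was the member of this list among the 14 genes past the adjusted limma test. *Socs3*, an inhibitor of cytokine signalling, lay lower in *Slc6a4*-/-, at 123.4 ± 12.1 against 175.1 ± 53.5 in WT (SD, n = 3 each), and did not pass. Of 17 antigen presentation genes, which interferon-gamma also induces, 5 were in the table. All 5 lay above WT without overlap (38.1% over all genes). Their median log2 difference was 0.59, from 0.39 for *H2-K1* to 1.18 for *H2-Aa*. In limma none of the 5 passed the adjusted threshold, and all 5 had an unadjusted p under 0.05 (54.1% over all genes). The range of the GTPase genes, 0.45 to 2.19, lay within that of the antiviral genes only through *Slfn4*. The next highest antiviral gene, *Oas2*, had a log2 difference of 2.09, below that of *Tgtp1*.

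Listed markers of cells other than retinal neurons also had higher means in the mutant pools. These lists were chosen with earlier results of these data known. Nothing is therefore read from how many of their genes are in the table or from their shared direction. Of 22 myeloid markers, 12 were in the table and all 12 had a higher mean in *Slc6a4*-/-, 7 of them without overlap (38.1% over all genes), with a median log2 difference of 0.96, from 0.58 for *Mpeg1* to 1.95 for *Ccr2*. Their summed level was 2.26 to 3.35 RPKM in WT and 3.72 to 7.95 RPKM in *Slc6a4*-/-. *Ccr2*, a receptor of monocytes, had 4, 1 and 0 reads in the WT pools against 10, 5 and 10 in the mutant pools, and was the only listed marker at 0 in a library. The microglial markers *Cx3cr1*, *P2ry12* and *Tmem119* were not among the selected genes of the table. *Lyz2*, with the most reads of the 12, had overlapping groups at 135.5 ± 60.8 and 235.2 ± 77.0 scaled counts (SD, n = 3 each). Of 10 pigment cell markers, 7 were in the table and all were higher on average, 3 without overlap (38.1% over all genes). Their sums were 4.11 to 9.46 RPKM in WT and 9.11 to 14.8 RPKM in *Slc6a4*-/-. Of 8 endothelial markers *Clec14a* was in the table, with a log2 difference of 0.83, and none of 9 lymphocyte markers was. Of the 9 retinal neuron and glia markers, 8 had a lower mean in *Slc6a4*-/-, 2 of them without overlap (25.2% over all genes). The median log2 difference of the 9 was -0.20. Their summed level was 126.3 to 168.2 RPKM in WT and 107.4 to 124.5 RPKM in *Slc6a4*-/-. Most of the drop in this sum came from *Opn1sw*, at 54.8 ± 26.8 RPKM in WT and 23.1 ± 5.93 RPKM in *Slc6a4*-/- (SD, n = 3 each), with overlapping groups. None of these markers passed the adjusted limma test, while 5 of the 12 myeloid, 5 of the 7 pigment cell, 4 of the 9 retinal markers and *Clec14a* had an unadjusted p under 0.05. The share over all genes was 54.1%, above that of the myeloid and the retinal markers. The part of these cell types in the levels of the GTPase genes was not tested.

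Within genotypes the GTPase genes did not all have the sample order of the myeloid markers. The myeloid list was highest in *Slc6a4*-/- sample 1, at 1.59 above the WT mean on the log2 scale against 0.75 and 0.88 in samples 2 and 3. *Gbp3* had the same sample at the top, at 1.08 against 0.77 and 0.68. *Gbp6*, *Gbp4* and *Iigp1* had that sample at the bottom. *Gbp9* (0.57 against 0.59 in sample 3) and *Tgtp1* (1.95 against 1.99 in sample 2) did so by a near tie, and in unscaled reads *Gbp9* was lowest in sample 3. *Gbp6* had 401 unscaled reads in sample 1 and 402 in sample 3. *Iigp1* ran from 0.31 in sample 1 to 0.82 in sample 2 and 1.88 in sample 3. After removal of the genotype means, r with the myeloid list over 6 samples was 0.66 for *Gbp3*, -0.64 for *Iigp1* and 0.02 for *Gbp6*. With the antigen presentation list r was 0.83 for *Gbp6* and 0.78 for *Gbp9*, and -0.28 for *Iigp1*. The pigment cell list gave a like split, with r of 0.61, 0.66 and -0.67 for the same genes. With the antiviral list r was 0.06, 0.26 and -0.41. These are descriptions over 6 samples that share libraries and scaling. For several of the genes the spread between pools was no larger than counting error, so r cannot show whether they follow a list.

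**Figure D4:**
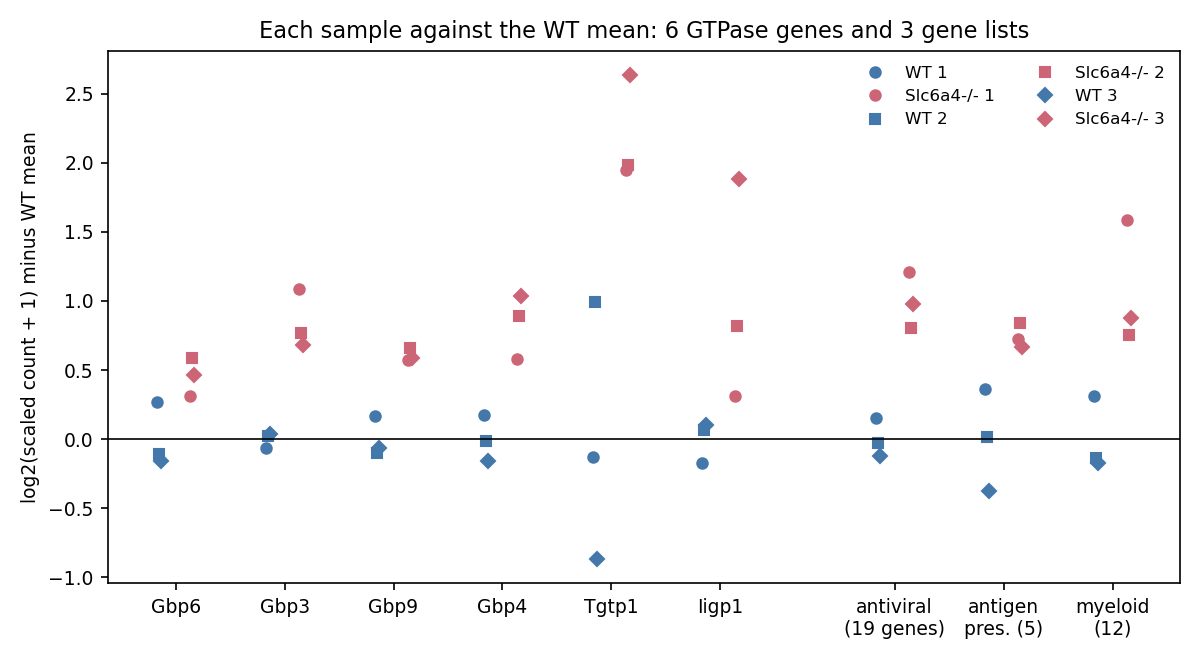
Mean log2(scaled count + 1) of each sample minus the WT mean (vertical axis) for the 6 GTPase genes and for the antiviral (19 genes), antigen presentation (5 genes) and myeloid (12 genes) lists, with circles, squares and diamonds for samples 1, 2 and 3. *Slc6a4*-/- sample 1 is the highest for *Gbp3*, the antiviral list and the myeloid list, and the lowest for the other 5 GTPase genes, in near ties for *Gbp9* and *Tgtp1*.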

How the data were processed

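Per the labels and the study's methods, the authors sequenced rRNA-reduced total RNA libraries of 6 pooled VT retina samples as paired reads, and did alignment to GRCm38 and counting by gene with CLC Genomics Workbench. What they deposited is 1 table with the read counts of 701 selected genes (at least 10 reads in 2 samples of a genotype and p below 0.05), written with digit separators, which were removed, and 25 blank lines, which were skipped. The same deposited table gives the authors' RPKM mean of the higher genotype. It also holds the authors' fold changes and p-values, which were not used. Every column of sample values was used (0 unused). How the authors assigned reads that match several genes is not given in the sources used here.

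Library totals per genotype were the most frequent value implied by counts, the authors' RPKM (over 2) and GENCODE M21 exon lengths: 66 of 125 genes lay within 1% of 77.9 M reads in WT, and 59 of 168 within 1% of 88.4 M in *Slc6a4*-/-. Within a genotype the factor was the median of ratios over genes with at least 100 reads in every library. All 701 gene identifiers had a position in GENCODE M21. Genotypes were compared with limma 3.58.1 (lmFit, eBayes with trend) under R 4.3.3, with values as log2(scaled count + 1), no covariate and Benjamini-Hochberg adjustment over 701 genes. Count models were not run. As deposited, the columns with digit separators did not pass a check for counts, although the values were whole numbers once the separators were removed. Scaling and limma were tested on simulated data. The p-values and SEs rest on the spread between pools, with the variance of each gene drawn towards a trend over the table. The p-values are not a transcriptome-wide rate because the rows were selected on the same samples.

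The members and gene lists were chosen with earlier results of these data known. The genes named were the 6 members, table genes within 200 kb, per list the highest, the lowest and the most abundant gene, the 5 most alike in pattern, and *Slc6a4*. The family, interferon, receptor and microglial genes named as outside the table are in the lists and had no counts to analyse. Exon lengths are unions over all transcripts of a gene. Shared 75-base words were counted over all GENCODE M21 transcripts on both strands.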

Additional observations from a re-analysis of the deposited data

How the results depend on the processing

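The 6 GTPase genes had a positive log2 difference in all 76 values from the alternatives run (other scaling, pseudocount, filter, weights, block, and each library left out). The ranges were 0.70 to 1.03 for *Gbp3*, 0.69 to 1.01 for *Gbp4*, 0.30 to 0.63 for *Gbp6*, 0.46 to 0.79 for *Gbp9*, 0.57 to 1.35 for *Iigp1* and 1.59 to 2.69 for *Tgtp1*. The scaling shifts all genes together: the median over the table was 0.29, 0.47 with no library scaling (the equal depth the study states) and 0.14 with the median of ratios of the table. With the median of ratios of the table *Gbp6* overlapped between genotypes, which left 5 of 6 genes apart. The count past the adjusted limma test depended on the setting. It was 14 of 701 table genes with 0 GTPase genes, but 160 with 5 GTPase genes under no library scaling, where 95.0% of the calls were higher in *Slc6a4*-/- in place of 71.4%, 7 with the median of ratios of the table, where 42.9% were higher, and 39 with 3 GTPase genes in limma without trend. Leaving out each library in turn gave 4 to 166 table genes and 0 to 3 GTPase genes, with the 166 and the 3 (*Gbp3*, *Gbp6* and *Gbp9*) without WT sample 1, 5 table genes without WT sample 2, 5 without WT sample 3, and 9, 4 and 36 without *Slc6a4*-/- samples 1, 2 and 3. The cause was not tested. Samples with the same replicate number were not taken as pairs. Their deviations had r = 0.29, -0.25 and 0.03 over 641 genes, against -0.23 to 0.20 for different numbers. With 3 pools per genotype these values cannot decide whether the samples were paired. A replicate block gave 4 table genes and 0 GTPase genes. *Tgtp1*, *Iigp1* and *Gbp4* had 2 to 42 reads per library, so their values carry more counting error relative to their size than those of the other 3 genes.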
